A study of Rattus norvegicus with 12 samples.

Results

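Macrophage genes of the rat lung were followed across left heart failure and mast cell stabilization. Of 10 genes named for macrophages, 9 were on the array: Spp1, Gpnmb and Trem2, which mark lipid-associated macrophages, and Itgax, Adgre1, Cd68, Mrc1, Ctsk and Mmp12, which served as general macrophage genes. They were found as every probe set whose only platform symbol was 1 of these names. This gave 10 probe sets (Trem2 had 2) and 9 of the 14217 genes named on the array. Msr1, the tenth, was not analysed here. Where a gene is given by 1 value, the brighter probe set was used.

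The 12 arrays each took total RNA of a whole lung, 1 male Sprague-Dawley rat per array. Juvenile rats had received a clip on the supracoronary aorta, which is followed by congestive heart failure (CHF) and secondary pulmonary hypertension, or a sham operation with no clip, and lungs were taken 9 weeks later. From the first day after surgery the drinking water carried either placebo (a CHF arm that the design text calls untreated) or ketotifen, a drug that blocks histamine receptors and keeps mast cells from releasing their granules, at 1 mg per kg per day. The 4 groups of 3 rats were therefore sham placebo, CHF placebo, sham ketotifen and CHF ketotifen, and the labels name no genetic change in any of them. The title of the series puts the question as what mast cells do in this form of pulmonary hypertension. Values are the deposited log2 expression values. Differences are log2 differences between group means with the standard error (SE) of a single limma fit to all 12 arrays, and a gene was called at an adjusted p under 0.05 over 16536 probe sets. The p-values measure the spread between these lungs, and arrays have no read depth, so that their number limits the precision.

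The lung holds macrophages in its air spaces and in the tissue around vessels and airways. In left heart failure, blood backs up into the lung capillaries, and alveolar macrophages take up red cells and iron, for which they are known as heart failure cells. Macrophages that handle large loads of lipid or cell debris turn on a shared set of genes in many tissues. In that state the receptor TREM2 senses lipids and dying cells, osteopontin (Spp1) is secreted as an adhesive cytokine, and GPNMB sits in the membranes of lysosomes.

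The promoters of Spp1, Gpnmb, Trem2 and Mmp12 are shown because the first 3 are the lipid-associated genes named at the start and Mmp12 was the gene not called on average. Sequences are from RefSeq on the rat build GRCr8, 5′ to 3′, from 250 bases before the annotated start to 30 bases after it, 280 bases each. All 9 genes matched. Capitals mark matches on either strand to 4 motifs: the AP-1 site TGANTCA, the E-boxes CACGTG and CATGTG, and the PU.1 core GAGGAA. The Spp1 window is chr14:5619775-5620054 on the minus strand, Gpnmb is chr4:79340878-79341157 on the plus strand, Trem2 is chr9:20151750-20152029 on the minus strand, and Mmp12 is chr8:12866402-12866681 on the plus strand.
Spp1: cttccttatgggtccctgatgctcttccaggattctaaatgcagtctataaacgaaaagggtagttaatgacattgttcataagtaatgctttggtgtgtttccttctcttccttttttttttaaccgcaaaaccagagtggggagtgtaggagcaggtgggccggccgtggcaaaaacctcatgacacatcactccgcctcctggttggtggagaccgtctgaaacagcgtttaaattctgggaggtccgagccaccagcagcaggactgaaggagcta
Gpnmb: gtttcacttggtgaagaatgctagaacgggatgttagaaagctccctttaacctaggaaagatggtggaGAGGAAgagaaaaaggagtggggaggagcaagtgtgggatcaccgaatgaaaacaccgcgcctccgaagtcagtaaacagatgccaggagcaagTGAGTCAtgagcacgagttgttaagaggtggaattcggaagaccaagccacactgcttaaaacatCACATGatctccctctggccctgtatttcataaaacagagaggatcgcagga
Trem2: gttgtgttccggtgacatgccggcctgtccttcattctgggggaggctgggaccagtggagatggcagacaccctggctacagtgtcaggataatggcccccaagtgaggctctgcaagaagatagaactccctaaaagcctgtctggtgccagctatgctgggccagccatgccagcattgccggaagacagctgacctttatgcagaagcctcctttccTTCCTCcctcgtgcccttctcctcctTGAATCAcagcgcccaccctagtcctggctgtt
Mmp12: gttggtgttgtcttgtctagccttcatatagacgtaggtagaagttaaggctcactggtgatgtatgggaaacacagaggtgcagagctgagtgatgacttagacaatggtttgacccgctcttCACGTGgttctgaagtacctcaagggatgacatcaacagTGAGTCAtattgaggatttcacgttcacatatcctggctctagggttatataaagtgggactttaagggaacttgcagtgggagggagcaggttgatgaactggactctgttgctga
The Spp1 window held none of these 4 motifs. The letters TGANTCA were found in the windows of 5 of the 9 genes (Gpnmb, Trem2, Itgax, Cd68 and Mmp12), against 7.0% of 33469 RefSeq promoters of the same length. The match began at position -87 from the start in both Gpnmb and Mmp12, counting the base before the start as -1. GAGGAA was found in 6 of the 9 (Gpnmb, Trem2, Adgre1, Cd68, Mrc1 and Ctsk) against 25.8% of all promoters, CATGTG in 4 (Gpnmb, Cd68, Mrc1 and Ctsk) against 13.3%, and CACGTG in 1 (Mmp12) against 6.18%. None of the 20 matches overlapped another. A match is a run of letters, and binding was not measured.

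The lungs did not differ by group alone. Between 15809 and 16056 probe sets per array lay at or above 4 on the log2 scale, and lung markers were high in every array (surfactant protein C, Sftpc, 15.40 to 15.93). Sham placebo lung 3 and sham ketotifen lungs 1 and 2 also carried cardiomyocyte signal: the mean of 10 cardiomyocyte genes reached 6.30 in sham placebo and 7.15 in sham ketotifen lungs, and at most 2.76 in the CHF lungs. The difference between the 3′ and 5′ beta-actin controls, which grows as RNA breaks down, was 3.90 and 4.23 in sham placebo lungs 3 and 2 and 4.52 in sham ketotifen lung 2, against 2.90 to 3.45 in the other 9 lungs. CHF ketotifen lungs 1 and 3 were nearly alike (r = 0.993 over probe sets, with an SD of 0.258 between their values, against 0.397 for the next closest pair). Calls lost without these lungs, and CHF differences that moved by over 1.5 times, are given beside the values they touch.

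In placebo rats, all 9 macrophage genes had higher means in heart failure, by 0.70 (Mmp12) to 3.65 (Spp1), and none was called. In 6 of 9 genes every CHF placebo lung lay above every sham placebo lung, against 12.7% of all probe sets. The limma fit called 0.169% of all probe sets in this comparison, and 8 of the 9 genes had an unadjusted p under 0.05, as had 3326 of the 16536 probe sets. In ketotifen rats, all 9 genes lay higher in every CHF lung than in every sham lung, against 19.2% of all probe sets. There 7 of 9 were called higher, against 6.36% of all. Trem2 passed the filter on low values through CHF lungs alone, so that its inclusion in these counts was bound to its being high there. Without it, 5 of 8 genes lay apart in placebo rats, and 8 of 8 lay apart and 6 of 8 were called in ketotifen rats. The 9 genes were chosen with earlier results of these data known, so that their counts here and below are a description. In a whole lung, more cells of a type and more RNA of a gene per cell cannot be told apart.

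**Figure D1:**
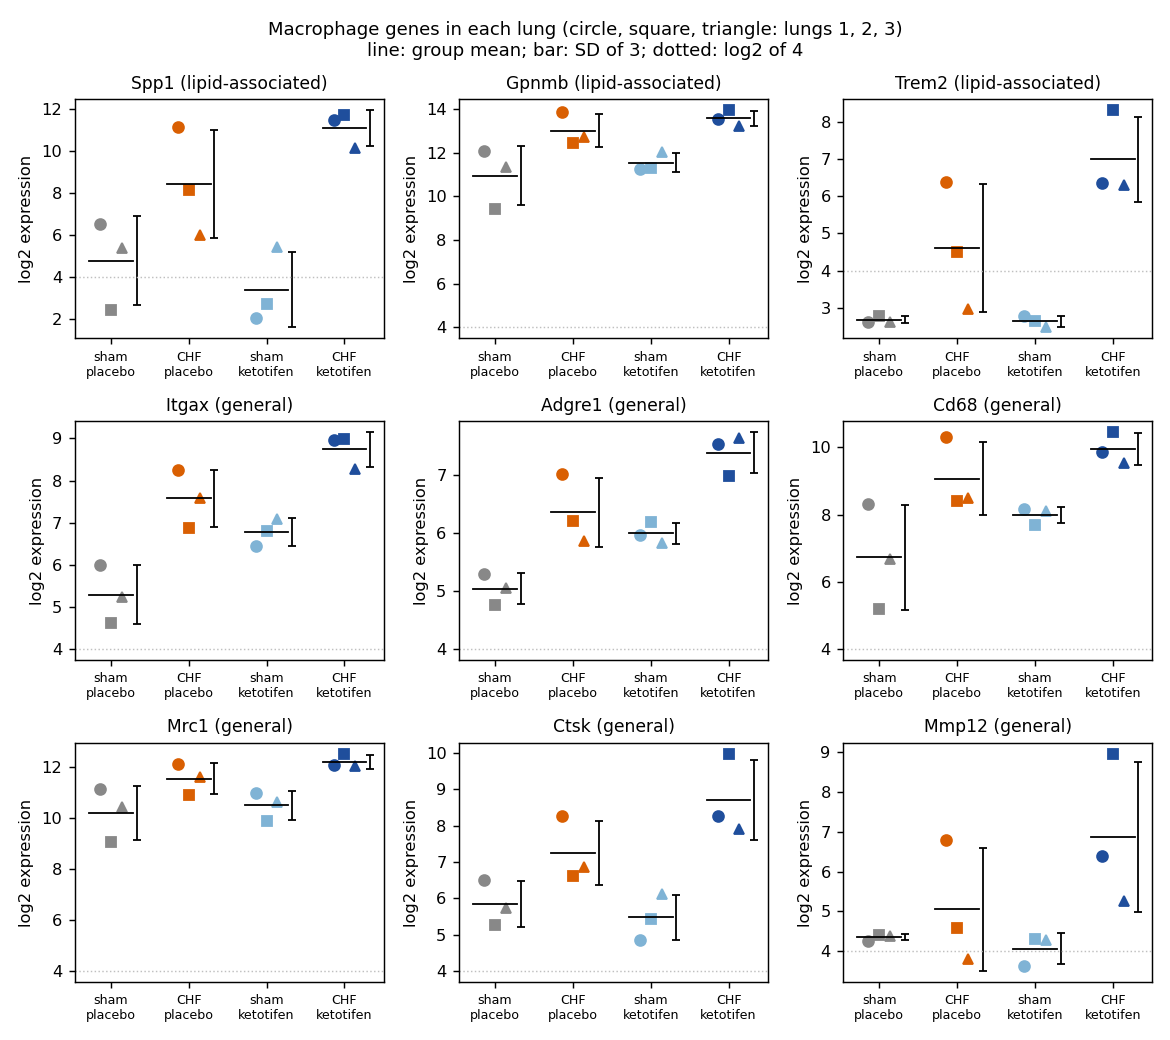
Log2 expression of 9 macrophage genes in each of 12 lungs, with 1 panel per gene and its own vertical axis. Circles, squares and triangles are lungs 1, 2 and 3 of a group, the horizontal line is the group mean, the bar is ± 1 SD of the 3 lungs and the dotted line marks a log2 value of 4. In each panel CHF placebo lung 1 and the 3 CHF ketotifen lungs are the 4 highest points.

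Spp1 encodes osteopontin. Its log2 values were 6.52, 2.43 and 5.42 in sham placebo lungs 1 to 3 and 11.14, 8.16 and 6.01 in CHF placebo lungs 1 to 3. Under ketotifen they were 2.07, 2.75 and 5.45 in sham lungs and 11.46, 11.70 and 10.14 in CHF lungs. The placebo groups overlapped, because CHF lung 3 lay below sham lung 1, and the ketotifen groups lay far apart. CHF exceeded sham by 3.65 ± 1.36 (SE) with placebo (limma adjusted p = 0.181) and by 7.68 ± 1.36 with ketotifen (limma adjusted p = 0.00814). Values below about 4 are near background, where this method flattens differences. With such values set to 4, the ketotifen difference was 6.62 (limma adjusted p = 0.00619).

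Trem2 had 2 probe sets of like pattern. The brighter gave 2.63, 2.79 and 2.62 in sham placebo lungs and 2.79, 2.64 and 2.48 in sham ketotifen lungs. It gave 6.39, 4.50 and 2.96 in CHF placebo lungs and 6.35, 8.30 and 6.30 in CHF ketotifen lungs. All 6 sham lungs thus lay near background, CHF placebo lung 3 lay just above them, and the other 5 CHF lungs were higher. Both probe sets could be tested only because they were high in CHF lungs. The CHF difference was 1.94 ± 0.73 with placebo (limma adjusted p = 0.188) and 4.35 ± 0.73 with ketotifen (limma adjusted p = 0.00682). The dimmer probe set gave 1.97 ± 0.86 and 4.15 ± 0.86 (limma adjusted p = 0.233 and 0.0150). With values under 4 set to 4, the ketotifen difference of the brighter probe set was 2.98 (limma adjusted p = 0.0140).

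Gpnmb, the third lipid-associated gene, had a different pattern from Spp1 and Trem2. It was measured well above background throughout, at 12.08, 9.44 and 11.34 in sham placebo lungs and 13.89, 12.46 and 12.71 in CHF placebo lungs. Sham ketotifen lungs gave 11.27, 11.30 and 12.04 and CHF ketotifen lungs 13.57, 13.95 and 13.23. CHF and sham lungs did not overlap in either arm. The CHF difference was 2.07 ± 0.58 with placebo (limma adjusted p = 0.123) and 2.05 ± 0.58 with ketotifen (limma adjusted p = 0.0431). Their nearness depended on sham placebo lung 2, without which the ketotifen difference exceeded the placebo difference by 0.74. Without the 3 lungs of largest actin difference, which leaves sham placebo lung 1 alone in its group, the values were 0.94 and 1.93.

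Itgax encodes CD11c, an integrin chain carried by alveolar macrophages and dendritic cells. It gave 6.01, 4.61 and 5.25 in sham placebo lungs, 8.25, 6.88 and 7.60 in CHF placebo, 6.44, 6.81 and 7.08 in sham ketotifen and 8.96, 8.99 and 8.27 in CHF ketotifen lungs. Both sham groups lay below their CHF groups, and all 3 sham ketotifen lungs lay above all 3 sham placebo lungs. The CHF difference was 2.29 ± 0.40 with placebo, which had the lowest adjusted p of the 9 genes in that arm (limma, 0.0604), and 1.96 ± 0.40 with ketotifen (limma adjusted p = 0.0146).

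Adgre1 encodes an adhesion receptor of the cell surface that is widely used to identify rodent macrophages. Its values were 5.30, 4.76 and 5.05 in sham placebo lungs, 7.01, 6.21 and 5.85 in CHF placebo, 5.96, 6.19 and 5.83 in sham ketotifen and 7.54, 6.98 and 7.63 in CHF ketotifen lungs. The order of the groups was that of Itgax, with no overlap between CHF and sham in either arm. CHF exceeded sham by 1.32 ± 0.29 with placebo (limma adjusted p = 0.0920) and by 1.39 ± 0.29 with ketotifen (limma adjusted p = 0.0155), the smallest ketotifen difference of the 9 genes.

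Cd68, a lysosomal membrane protein of phagocytes, ran at 8.32, 5.19 and 6.67 in sham placebo lungs and 10.32, 8.40 and 8.49 in CHF placebo lungs. It ran at 8.15, 7.70 and 8.10 in sham ketotifen and 9.87, 10.45 and 9.52 in CHF ketotifen lungs. The groups lay apart in both arms, but in placebo rats by only the small gap between sham lung 1 and CHF lung 2. The CHF difference was 2.34 ± 0.69 with placebo (limma adjusted p = 0.127) and 1.96 ± 0.69 with ketotifen (limma adjusted p = 0.0832), so that Cd68 was called in neither arm. The ketotifen difference was called in 2 of 12 fits without 1 lung. These left out sham placebo lung 1 or 2, which enter only the shared spread (limma adjusted p = 0.0345 and 0.0391). It was also called with only the 2 ketotifen groups in the fit (limma adjusted p = 0.0056). Without the 3 lungs of largest actin difference, which leaves sham placebo lung 1 alone in its group, the placebo difference of Cd68 was 0.75.

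Mrc1 encodes the mannose receptor CD206, which binds sugars on microbes and on glycoproteins. It gave 11.11, 9.04 and 10.44 in sham placebo, 12.10, 10.90 and 11.59 in CHF placebo, 10.97, 9.87 and 10.61 in sham ketotifen and 12.06, 12.50 and 12.02 in CHF ketotifen lungs. Sham placebo lung 1 lay above CHF placebo lung 2, and the ketotifen groups did not overlap. The CHF difference was 1.34 ± 0.48 with placebo (limma adjusted p = 0.171) and 1.71 ± 0.48 with ketotifen (limma adjusted p = 0.0414).

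Ctsk and Mmp12 encode secreted or lysosomal proteases: cathepsin K cuts collagen and elastin, and MMP12 is the macrophage elastase. Ctsk gave 6.51, 5.28 and 5.73 in sham placebo, 8.26, 6.60 and 6.87 in CHF placebo, 4.86, 5.44 and 6.12 in sham ketotifen and 8.28, 9.97 and 7.90 in CHF ketotifen lungs. Its groups lay apart in both arms, by less than 0.1 in placebo rats. The CHF difference was 1.41 ± 0.59 with placebo (limma adjusted p = 0.222) and 3.24 ± 0.59 with ketotifen (limma adjusted p = 0.00952). Mmp12 gave 4.27, 4.41 and 4.37 in sham placebo, 6.78, 4.58 and 3.81 in CHF placebo, 3.63, 4.30 and 4.29 in sham ketotifen and 6.38, 8.94 and 5.26 in CHF ketotifen lungs. Only CHF placebo lung 1 stood clear of the sham lungs among placebo rats, and without it the placebo difference of Mmp12 turned from 0.70 to -0.16. With ketotifen all 3 CHF lungs lay above the sham lungs, but the difference of 2.79 ± 0.87 was not called (limma adjusted p = 0.0576). It was called without CHF placebo lung 1, which enters only the shared spread (limma adjusted p = 0.0286), or without CHF ketotifen lung 3 (3.59, limma adjusted p = 0.0413). Ctsk is also expressed by fibroblasts. The mean of 8 fibroblast genes, Ctsk among them, spanned 10.02 to 10.55 in sham and 10.11 to 10.88 in CHF lungs, and its part in the Ctsk difference was not tested.

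Averaged over both arms, CHF against sham gave the most calls among these genes. All but Mmp12 were called higher, 8 of 9, where the limma fit called 11.0% of all probe sets higher. The averages ran from 1.35 ± 0.21 for Adgre1 (limma adjusted p = 0.00423) through 1.52 ± 0.34 for Mrc1 (0.0143), 2.06 ± 0.41 for Gpnmb (0.00966), 2.13 ± 0.28 for Itgax (0.00304), 2.15 ± 0.49 for Cd68 (0.0154), 2.33 ± 0.42 for Ctsk (0.00716) and 3.14 ± 0.52 for Trem2 (0.00572) to 5.66 ± 0.96 for Spp1 (0.00617). Mmp12 averaged 1.75 ± 0.62 (limma adjusted p = 0.0651). All 9 averages were at least 1, as were 3.77% of all probe sets. In 6 of 9 genes (all but Spp1, Mrc1 and Mmp12) CHF and sham lungs lay apart within each arm, against 6.07% of all. Without Trem2, 7 of 8 were called and 5 of 8 lay apart. The 8 calls were kept in each of 12 fits that left out 1 lung. Leaving out the 3 lungs of largest actin difference, or the 3 with cardiomyocyte signal, gave 0 calls. In both settings 1 sham arm kept a single lung, assumed to vary like the others, all 9 differences stayed above 0, and calls over all probe sets fell from 3467 to 197 and 60. Without the lungs of largest actin difference, the averages of Cd68 and Mrc1 were 1.29 and 0.91.

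**Figure D2:**
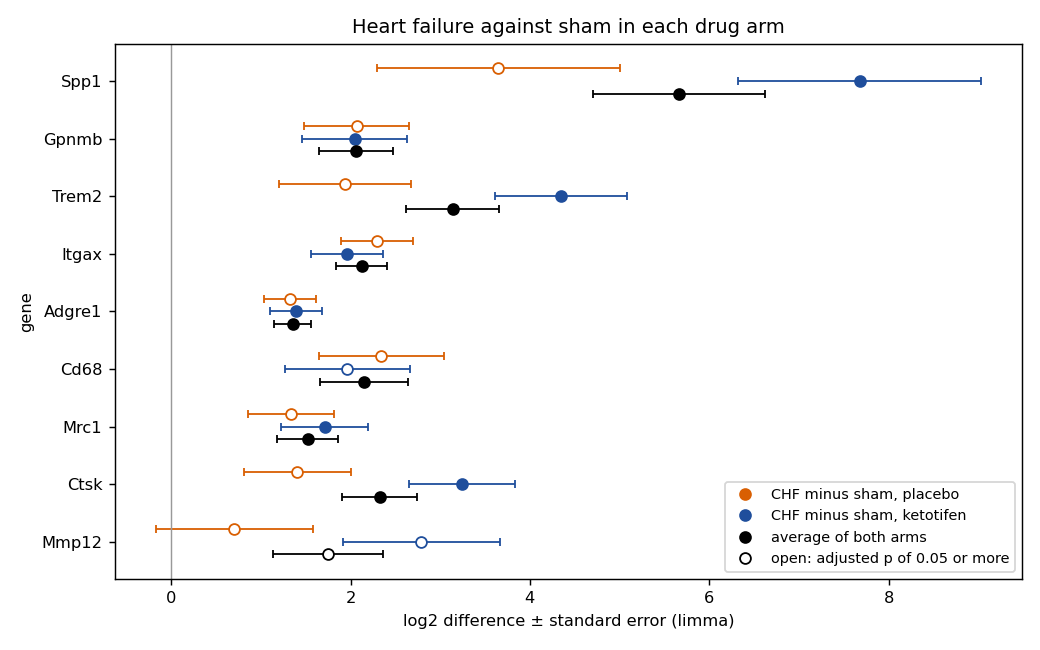
Difference between CHF and sham lungs for 9 macrophage genes on the log2 scale, in placebo rats, in ketotifen rats and averaged over both, with bars of ± 1 SE from limma. Filled points had an adjusted p under 0.05. For Spp1, Trem2, Ctsk and Mmp12 the ketotifen point lies to the right of the placebo point, while for Gpnmb, Itgax, Adgre1, Cd68 and Mrc1 both lie within 0.4 of each other.

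The ketotifen arm calls rested on few lungs. Without sham ketotifen lung 3, CHF ketotifen lung 1 or CHF ketotifen lung 2, or with CHF ketotifen lungs 1 and 3 averaged into 1, 4 of the 7 genes were called in each case. Across 12 fits without 1 lung, Spp1, Trem2 and Ctsk were called in 12, Itgax in 11, Adgre1 in 9, Mrc1 in 4 and Gpnmb in 3. Without the 3 lungs that carried cardiomyocyte signal, which left 1 sham ketotifen lung, 0 were called, with Spp1 at 5.65 (limma adjusted p = 0.256) and Trem2 at 4.50. In the placebo arm, the 0 calls rested on sham placebo lung 1. Without it 5 of 9 were called higher (Gpnmb, Itgax, Adgre1, Cd68 and Mrc1), and calls over all probe sets rose from 28 to 1496. Without the 3 lungs of largest actin difference, which leaves that lung alone in its group, the placebo differences were smaller by over 1.5 times for Spp1 (1.92), Gpnmb (0.94), Cd68 (0.75), Mrc1 (0.42) and Ctsk (0.73), and 0 genes were called.

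Ketotifen against placebo was compared within each surgery group. These comparisons share their placebo or ketotifen lungs with those above. In CHF rats all 9 means were higher with ketotifen, by 0.57 (Gpnmb) to 2.66 (Spp1), and 0 were called, where limma called 1.22% of all probe sets. Only Itgax had lungs that did not overlap, against 9.86% of all probe sets. The lowest adjusted p-values were those of Adgre1 at 1.03 ± 0.29 (limma adjusted p = 0.112) and Trem2 at 2.37 ± 0.73 (limma adjusted p = 0.138). Itgax differed by 1.16 ± 0.40 (limma adjusted p = 0.178), Mmp12 by 1.81 ± 0.87 (0.317) and Ctsk by 1.47 ± 0.59 (0.237), and 4 genes had an unadjusted p under 0.05, as had 2833 of all probe sets. CHF placebo lung 1 stood with the ketotifen lungs here: it was the highest of its group in all 9 genes. Without it, Trem2 at 3.26 (limma adjusted p = 0.0117) and Adgre1 at 1.35 (limma adjusted p = 0.0131) were called.

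In sham rats 5 of 9 means were higher with ketotifen, and 0 were called, against 0.0847% of all probe sets. Itgax at 1.49 ± 0.40 (limma adjusted p = 0.217) and Adgre1 at 0.96 ± 0.29 (0.242) lay apart, which 7.50% of all probe sets did. Cd68 differed by 1.26 ± 0.69 (0.441), while Spp1 differed by -1.37 ± 1.36 (limma adjusted p = 0.685). The unadjusted p was under 0.05 for 2 of the 9 and for 2310 of all probe sets. Without sham placebo lung 1, Itgax was called at 1.85 (limma adjusted p = 0.0313). Without the 3 lungs of largest actin difference, Itgax differed by 0.75, Adgre1 by 0.60 and Cd68 by -0.19.

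Whether the CHF difference itself differed between the drug arms was tested by the interaction. None of the 9 genes was called, where limma called 0.369% of all probe sets. Only Trem2, tested because it was high in CHF lungs, had an unadjusted p under 0.05, as had 1778 of all probe sets. The largest were 4.03 ± 1.92 for Spp1 (limma adjusted p = 0.481), 2.41 ± 1.04 for Trem2 (0.441), 2.09 ± 1.23 for Mmp12 (0.568) and 1.84 ± 0.84 for Ctsk (0.466). The dimmer Trem2 probe set gave 2.18 ± 1.21 (limma unadjusted p = 0.0999, adjusted p = 0.5425). Gpnmb (-0.02 ± 0.83), Adgre1 (0.07 ± 0.41), Itgax (-0.33 ± 0.57), Cd68 (-0.38 ± 0.98) and Mrc1 (0.37 ± 0.68) lay near 0. These p-values do not show that the arms were alike.

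The order of the group means was the same at the top for all 9 genes: CHF ketotifen, then CHF placebo, then the sham groups. Neighbours in that order differed by more than their spread only in part. CHF ketotifen and CHF placebo lungs overlapped in every gene but Itgax. The sham groups changed places, with sham placebo the higher for Spp1, Trem2, Ctsk and Mmp12 and sham ketotifen the higher for Gpnmb, Itgax, Adgre1, Cd68 and Mrc1, and 2 of these 9 sham differences (Itgax and Adgre1) came without overlap.

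The 9 genes ranked the lungs much alike. CHF ketotifen lung 2 was the highest of all 12 lungs in 8 of 9 genes, with Adgre1 the exception. CHF placebo lung 1 and the 3 CHF ketotifen lungs were the 4 highest in all 9. Sham placebo lung 2, which had 1 of the 3 largest actin differences and the highest ciliated cell mean (9.63), was the lowest of its group in 7 genes and of all lungs in 5. Across the 12 arrays, which share the group differences, Pearson's r between pairs of the 9 ran from 0.626 (Adgre1 and Mmp12) to 0.967 (Gpnmb and Cd68). The median r with the other 8 was lowest for Mmp12 (0.692) and highest for Gpnmb (0.897).

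To set the lipid-associated genes against the general ones, the mean of Spp1, Gpnmb and Trem2 and the mean of the 6 general genes were taken in each lung. The lipid-associated mean was 7.08, 4.89 and 6.46 in sham placebo, 10.47, 8.37 and 7.23 in CHF placebo, 5.38, 5.57 and 6.66 in sham ketotifen and 10.46, 11.32 and 9.89 in CHF ketotifen lungs. The general mean was 6.92, 5.55 and 6.25 in sham placebo, 8.79, 7.26 and 7.37 in CHF placebo, 6.67, 6.72 and 7.01 in sham ketotifen and 8.85, 9.64 and 8.43 in CHF ketotifen lungs. Both means separated CHF from sham lungs in each arm. In placebo rats the lipid-associated mean was higher in CHF by 2.55 and the general mean by 1.57, a gap of 0.98. Lung by lung, the lipid-associated mean less the general mean was 1.69, 1.11 and -0.14 in CHF placebo lungs 1 to 3. It was 0.16, -0.66 and 0.21 in sham placebo lungs 1 to 3, so that these groups overlapped. In ketotifen rats both means were higher in CHF, by 4.69 and 2.18, a gap of 2.51. The lung-by-lung difference was -1.29, -1.15 and -0.35 in sham ketotifen lungs 1 to 3, of which 1 and 2 carried cardiomyocyte signal. Ketotifen against placebo changed it by -0.83 in sham rats. The ketotifen gap exceeded the placebo gap by 1.53, and by 0.79 without the 3 lungs with cardiomyocyte signal. The pooled SD within groups of the lung-by-lung difference was 0.588. The gap between the groups of genes was 1.75 averaged over the arms.

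That gap did not hold gene by gene. Gpnmb, with an average difference of 2.06, lay among the general genes (1.35 to 2.33), and Spp1 exceeded all 6. Trem2, at 3.14, is measured against sham values near background, and with values under 4 set to 4 its average was 1.97, below those of Itgax, Cd68 and Ctsk. Ctsk, counted as general, lay closer to them under ketotifen (3.24) than any other general gene. With values under 4 set to 4, the average gap was 1.10 and the ketotifen gap 1.73, since only Spp1, Trem2 and Mmp12 reach below 4. The choice of lipid-associated genes was made with these data known, so that the gap is a description and has no test.

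**Figure D3:**
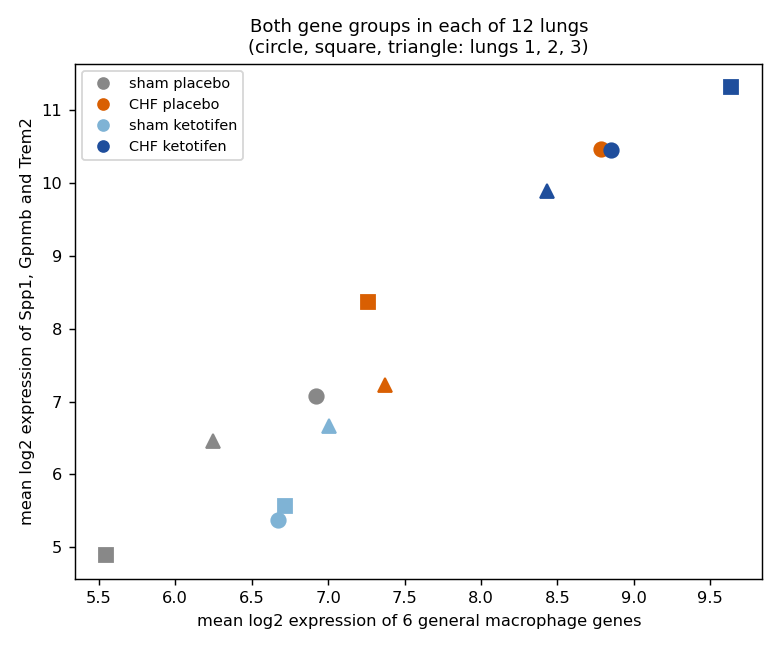
Mean log2 expression of Spp1, Gpnmb and Trem2 (vertical axis) against that of 6 general macrophage genes (horizontal axis) in each of 12 lungs, coloured by group, with circles, squares and triangles for lungs 1, 2 and 3. CHF placebo lung 1 (8.79, 10.47) lies beside CHF ketotifen lung 1 (8.85, 10.46), and the 3 sham ketotifen lungs (5.38 to 6.66 on the vertical axis) lie below sham placebo lung 1 (6.92, 7.08).

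Other genes of macrophage biology were read from lists, 1 probe set per gene. These lists were chosen with earlier results of these data known, so that their counts are a description. Among 22 lipid-handling and lysosomal partners of the lipid-associated state, 16 rose on average in CHF and 0 fell, where limma called 11.0% of all probe sets higher and 9.92% lower. Their median was 1.06 against -0.02 for all probe sets. They included Cd36, a scavenger receptor for oxidized lipid, at 1.02 ± 0.13 (limma adjusted p = 0.00201), Apoe, which carries cholesterol out of cells, at 1.08 ± 0.14 (0.00293), Lgals3, galectin-3, at 1.35 ± 0.19 (0.00342) and Plin2, which coats lipid droplets, at 0.70 ± 0.11 (0.00497). In ketotifen rats 14 of 22 rose and 0 fell (6.61% of all probe sets fell there), with a median of 1.24 against -0.03 for all. In placebo rats 0 were called and the median was 0.88, with 20 of 22 above 0.

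The counts of the other lists stand against the same shares of all probe sets called on average, 11.0% higher and 9.92% lower. Of 13 alveolar macrophage genes measured, 8 rose on average, 1 fell, and the median was 1.53. Olr1, a receptor for oxidized low-density lipoprotein, rose by 3.38 ± 0.53 (limma adjusted p = 0.00449), Bhlhe41, a transcription factor of alveolar macrophages, by 2.19 ± 0.40 (0.00722), Pparg, the nuclear receptor that directs their lipid handling, by 2.00 ± 0.38 (0.00830) and Il18, an inflammasome cytokine, by 1.73 ± 0.35 (0.00995). The gene that fell was Car4, a carbonic anhydrase that capillary endothelium also carries. Its average difference was -1.26 ± 0.37 (limma adjusted p = 0.0343), from -0.11 in placebo and -2.42 in ketotifen rats. The interaction was not called (limma adjusted p = 0.290).

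Among 16 genes of interstitial and resident macrophages, 9 rose and 3 fell on average (median 0.91). C1qa, a chain of complement C1q, rose by 1.69 ± 0.24 (limma adjusted p = 0.00343). Lyve1, a hyaluronan receptor that lymphatic vessels also carry, fell: its average difference was -1.78 ± 0.44 (limma adjusted p = 0.0206), from -0.63 in placebo and -2.92 in ketotifen rats. Its interaction was not called either (limma adjusted p = 0.395). Of 13 monocyte genes 7 rose and 0 fell (median 0.49), led by Fcgr1a, the high-affinity IgG receptor, at 1.44 ± 0.26 (limma adjusted p = 0.00716). All 8 pan-leukocyte genes rose on average (median 1.06), while in ketotifen rats alone 1 of 8 was called (Laptm5). The dimmer probe set of Laptm5 was not called there (1.16, limma adjusted p = 0.118).

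Of 11 growth factors and transcription factors of macrophages 4 rose and 0 fell (median 0.45). Pparg is on this list too, and Tgfb1, Cebpb and Csf2ra, a chain of the GM-CSF receptor, were the others. The ligand genes Csf1, Il34 and Csf2, also on this list, were not called. Csf1 averaged -0.24 ± 0.22 (limma adjusted p = 0.456), Il34 0.12 ± 0.21 (0.713) and Csf2 0.45 ± 0.24 (0.204). Cathepsin K and osteopontin are also known from bone-resorbing osteoclasts. Of 7 osteoclast-type genes measured, 2 rose: Tfec, a transcription factor of the MiT family, by 2.39 ± 0.47 (limma adjusted p = 0.00919) and Acp5, tartrate-resistant acid phosphatase, by 1.19 ± 0.35 (0.0365). Of 6 bone and cartilage markers on the array, 5 lay below 4 in every lung, and Alpl, an alkaline phosphatase that other tissues also express, lay at 6.63 to 7.85. Of 7 osteopontin receptors 1 rose, Cd44, by 1.25 ± 0.20 (limma adjusted p = 0.00528), with a list median of 0.07. That share is near the 11.0% of all probe sets called higher. In none of these lists was a gene called in placebo rats alone, for ketotifen against placebo in either surgery group, or for the interaction.

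**Figure D4:**
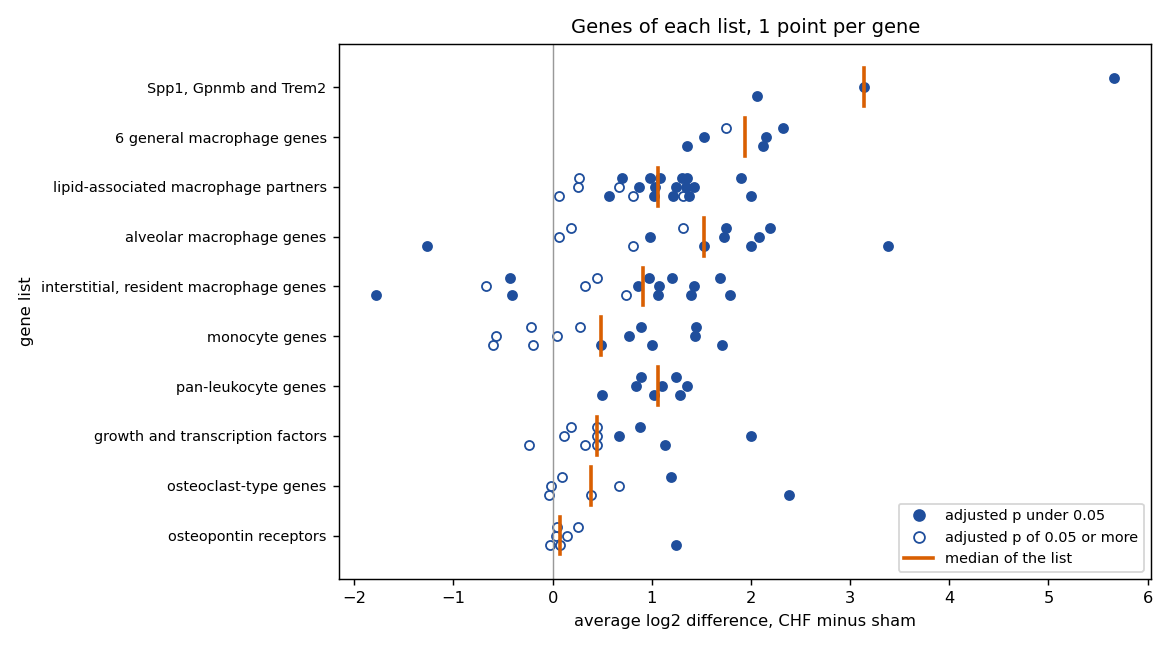
Average log2 difference between CHF and sham lungs for each gene (1 point each) of the lists of macrophage genes, with filled points at an adjusted p under 0.05 (limma) and an orange bar at the median of each list. The partner list has its median at 1.06 and no point below 0, and the osteopontin receptor list has its median at 0.07.

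Signals of other cells moved with these results. The mean of 7 macrophage markers outside the 9 genes was 7.16 to 8.39 in sham placebo, 8.50 to 9.13 in CHF placebo, 7.92 to 8.18 in sham ketotifen and 8.82 to 9.69 in CHF ketotifen lungs, which put CHF above sham in both arms. The mean of 5 endothelial markers ran the other way, at 11.99 to 12.06, 10.73 to 11.79, 11.84 to 12.12 and 10.45 to 10.90 in the same order. The mean of 10 inflammatory cytokine genes was 3.68 to 4.55 in sham lungs, 4.49 to 4.86 in CHF placebo and 8.46 to 9.69 in CHF ketotifen lungs, so that the last stood alone. The mean of 8 cell cycle genes was 3.99 to 4.50 in sham lungs, 4.17 to 5.42 in CHF placebo and 5.95 to 6.31 in CHF ketotifen lungs. Ciliated cell markers, from airway tissue, spanned 6.26 to 9.63 in sham placebo and 6.73 to 7.10 in sham ketotifen lungs. They spanned 5.52 to 6.40 in CHF placebo lungs, which overlapped sham placebo, and 5.65 to 5.92 in CHF ketotifen lungs. Mast cell markers spanned 4.29 to 5.71 in sham, 6.02 to 7.32 in CHF placebo and 5.62 to 6.78 in CHF ketotifen lungs. The part of these signals in the macrophage gene differences was not tested.

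For each of the 9 genes, the 5 others whose values followed it most closely over the 12 arrays were found by Pearson's r, as a description of arrays that share the group differences. Spp1 was followed by Txnrd3 (r = 0.973), Hmox1 (0.968), Npc2 (0.968), Ttyh2 (0.964) and Tgfbr1 (0.961). Hmox1, heme oxygenase, breaks down heme, and Npc2 moves cholesterol out of lysosomes. Gpnmb was followed by Clec7a (0.992), Naaa (0.991), Cndp1 (0.988), Cd33 (0.986) and Arpc5 (0.980), of which Clec7a is the fungal glucan receptor dectin-1. Trem2 was closest to Fermt3 (0.973) and Msrb1 (0.971), and Itgax to Acot9 (0.983), Bcl2a1 (0.980) and Igf1 (0.977). Adgre1 was closest to Rnf7 (0.971), Clec4a3 and Cd86 (0.970), the last a costimulatory ligand for T cells. Cd68 was closest to Lcp1 (0.992) and Pilra (0.990), Ctsk to Arrb2 (0.982) and Mmp12 to Idh1 (0.964). Mrc1 was closest to Siglec10 (0.993) and Axl (0.985), with the efferocytosis receptor Mertk (0.967) also among those 5. On average in CHF, Hmox1 rose by 2.83 ± 0.41 (limma adjusted p = 0.00366), Clec7a by 1.90 ± 0.35 (0.00725), Igf1 by 1.55 ± 0.22 (0.00342) and Axl by 1.20 ± 0.26 (0.0119). These calls too were not followed with lungs left out.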

How the data were processed

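RNA of 12 whole rat lungs was measured on Affymetrix rat genome arrays. The submitters' processing notes name GCRMA and R 2.5.0 as the tools behind the deposited log2 values. No other settings were given in the sources used. GCRMA removes a modelled background, so values near it (about 4 and less) flatten and fold sizes there are uncertain. Scanner files were not used here.

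Groups came from the sample titles. Of 31042 probe sets that were no controls, 16536 with a log2 value of at least 4 in at least 3 arrays were tested in 1 limma 3.58.1 fit (R 4.3.3, 4 group means, eBayes with trend, 8 residual degrees of freedom, two-sided), with Benjamini-Hochberg adjustment over all of them in each of 6 comparisons. Symbols came from the platform annotation, and promoters from RefSeq. Replicate numbers did not pair the lungs: same-numbered lungs had correlations of -0.347 to 0.263. Genes and lists were chosen with earlier results of these data known. Named genes were all members, at most 4 called genes per list and comparison by smallest p, and the 5 genes of highest r per member. Ligand genes not called (Csf1, Il34, Csf2) were named after their values were seen. The code was tested on simulated data. The alternatives were other filters, normalizations, floors, fits, a replicate block and lungs left out.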

Additional observations from a re-analysis of the deposited data

How the results depend on the processing

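The interaction gave 0 called genes of 9 under every alternative run. With 1 lung left out at a time, the number of the 9 genes called ran from 0 to 5 for CHF against sham with placebo, 0 to 2 for the drug in CHF, 4 to 8 for the CHF difference under ketotifen, 0 to 1 for the drug in sham rats and 8 to 9 for the average of surgery. Averaging CHF ketotifen lungs 1 and 3 left 4 calls under ketotifen, and leaving out the 3 lungs with cardiomyocyte signal left 0 there and 0 for the average. Leaving out the 3 lungs of largest actin difference, which leaves sham placebo lung 1 alone in its group, gave averages of 1.29 for Cd68 and 0.91 for Mrc1. With a replicate block the counts were 7 for the CHF difference under ketotifen, 8 for the average and 0 elsewhere. The gap between lipid-associated and general means moved to 1.73 (CHF against sham, ketotifen) and 1.10 (average) with values under 4 set to 4. It moved from -0.83 to -0.095 (drug in sham) and from 1.53 to 0.79 (interaction) without the cardiomyocyte lungs. Without Ctsk and Mmp12 it moved to 2.21 (interaction). The cause of these changes was not tested.

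Of 1360 single probe set values under alternatives, 1259 kept direction and side of the threshold, 54 lost a call, 16 gained one and 31 changed sign, each of the last from an uncalled value. For the drug in sham rats, leaving out the cardiomyocyte lungs gave 0.98 for Spp1 and 0.22 for Ctsk. Leaving out the lungs of largest actin difference gave -0.43 for Gpnmb, 0.0077 for Trem2, -0.19 for Cd68 and -0.32 for Mrc1. With single lungs left out the range was -0.17 to 1.15 for Gpnmb, -0.12 to 0.038 for Trem2 and -0.29 to 0.74 for Mrc1. For the interaction, leaving out the lungs of largest actin difference gave 0.99 for Gpnmb, 0.41 for Itgax and 1.07 for Cd68. Averaging CHF ketotifen lungs 1 and 3 gave 0.074 for Gpnmb and -0.035 for Adgre1. With single lungs left out the range was -0.58 to 0.74 for Gpnmb, -0.69 to 0.011 for Itgax, -0.18 to 0.39 for Adgre1, -1.17 to 0.39 for Cd68 and -0.084 to 0.95 for Mrc1. Mmp12 in the placebo CHF difference ranged from -0.16 (without CHF placebo lung 1) to 1.33. Signal near background limits Trem2, Spp1 and Mmp12.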
